A study of Mus musculus with 23 samples.

Results

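Kit, Stra8, Dmrt1, Dmrtb1, Sohlh1, Sohlh2, Ythdc2 and Tex101 were followed through male mouse germ cell development as 8 of the 18193 genes measured on Affymetrix arrays. They were taken by name as genes of spermatogonial differentiation and meiotic entry. Each was read from the probe set annotated to that gene alone with the highest mean over the 20 wild-type arrays; Kit had 2 such probe sets and the other members 1 each. The 3 Spo11-/- arrays held 1 sample each of spermatogonia, pre-leptotene and leptotene/zygotene cells from males aged 10 to 16 weeks whose strain is not given in the sources used here; these cells were pooled from collections of 4 and 3 mice, and nothing says whether the same mice went into more than 1 of these arrays. Wild-type cells came from C57BL6xDBA2J F1 males of the same age, and all cells were sorted from testis after staining with a Hoechst dye, which separates germ cells largely by DNA content. The wild-type arrays covered spermatogonia (4 arrays), pre-leptotene (3), leptotene/zygotene (3), early pachytene (1), mid-pachytene (2), late pachytene (1) and diplotene (2) spermatocytes, and then round spermatids (4), in the order of development.

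Retinoic acid drives spermatogonia to differentiate and later to enter meiosis. KIT, the receptor for stem cell factor, marks differentiating spermatogonia; SOHLH1 and SOHLH2 are basic helix-loop-helix transcription factors that act there and promote Kit expression. STRA8 is the retinoic acid-induced switch for meiotic entry, which the DM-domain factor DMRT1 restrains in spermatogonia and its relative DMRTB1 helps to time, and the RNA helicase YTHDC2 works with MEIOC to shut down the mitotic programme. TEX101 is a glycolipid-anchored surface protein of germ cells that is needed for the sperm protein ADAM3 to mature.

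Levels are given as log2(intensity + 1) of the authors' probe set values, so 1 unit is a change of 2-fold, and a level below 4 was taken as not above background. Changes are log2 differences ± SE from 1 limma fit of all wild-type fractions, and "rose" and "fell" are used of genes with a change of at least 1 and an adjusted p, over the 13087 genes in the fit, below 0.05. Wild-type arrays are biological replicates per the labels, and p-values reflect the spread among them. An array reads RNA of a whole sorted sample, so fewer cells of a type and less RNA per cell cannot be told apart.

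Markers of later germ cells were high in the early wild-type fractions and near background in the Spo11-/- arrays. The 12 spermatid markers had a median level of 3.03, 2.87 and 2.98 in the Spo11-/- spermatogonia, pre-leptotene and leptotene/zygotene arrays, where 1 of 12 reached level 4. In wild-type arrays all 12 reached it, with medians of 11.16 to 14.25 in spermatogonia, 9.96 to 11.43 in pre-leptotene and 10.30 to 10.40 in leptotene/zygotene cells, beside 12.71 to 13.53 in round spermatids. Spermatogonia arrays 1 and 2 had medians of 13.29 and 14.25, as high as the spermatid arrays, and the part of these markers' source cells in the levels below was not tested. The Spo11-/- pre-leptotene array stood apart from wild-type pre-leptotene arrays in markers of other cells. Its summed intensity was 20657.6 over 6 macrophage and leukocyte markers, against 40.9 to 589.2 in wild-type pre-leptotene arrays. Over 10 Sertoli cell markers it was 21653.4, against 3210.3 to 5982.3. The Spo11-/- leptotene/zygotene array had a Sertoli sum of 10078, against 5446.2 to 7920.1. Wild-type spermatogonia arrays also carried such markers, with leukocyte sums of 869.7 to 2588.2. Their sums over 6 peritubular and stromal markers were 1108.5 to 16140.6, highest in array 4, against 4446.5 in the Spo11-/- pre-leptotene array. The part of these cells in the levels of the 8 genes was not tested. Spo11 itself, in a probe set whose place relative to the deleted part is not known here, had levels of 4.30, 4.80 and 5.21 in the 3 Spo11-/- arrays, against 4.60 to 6.69, 4.61 to 7.03 and 7.42 to 8.95 in the matched wild-type fractions.

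**Figure D1:**
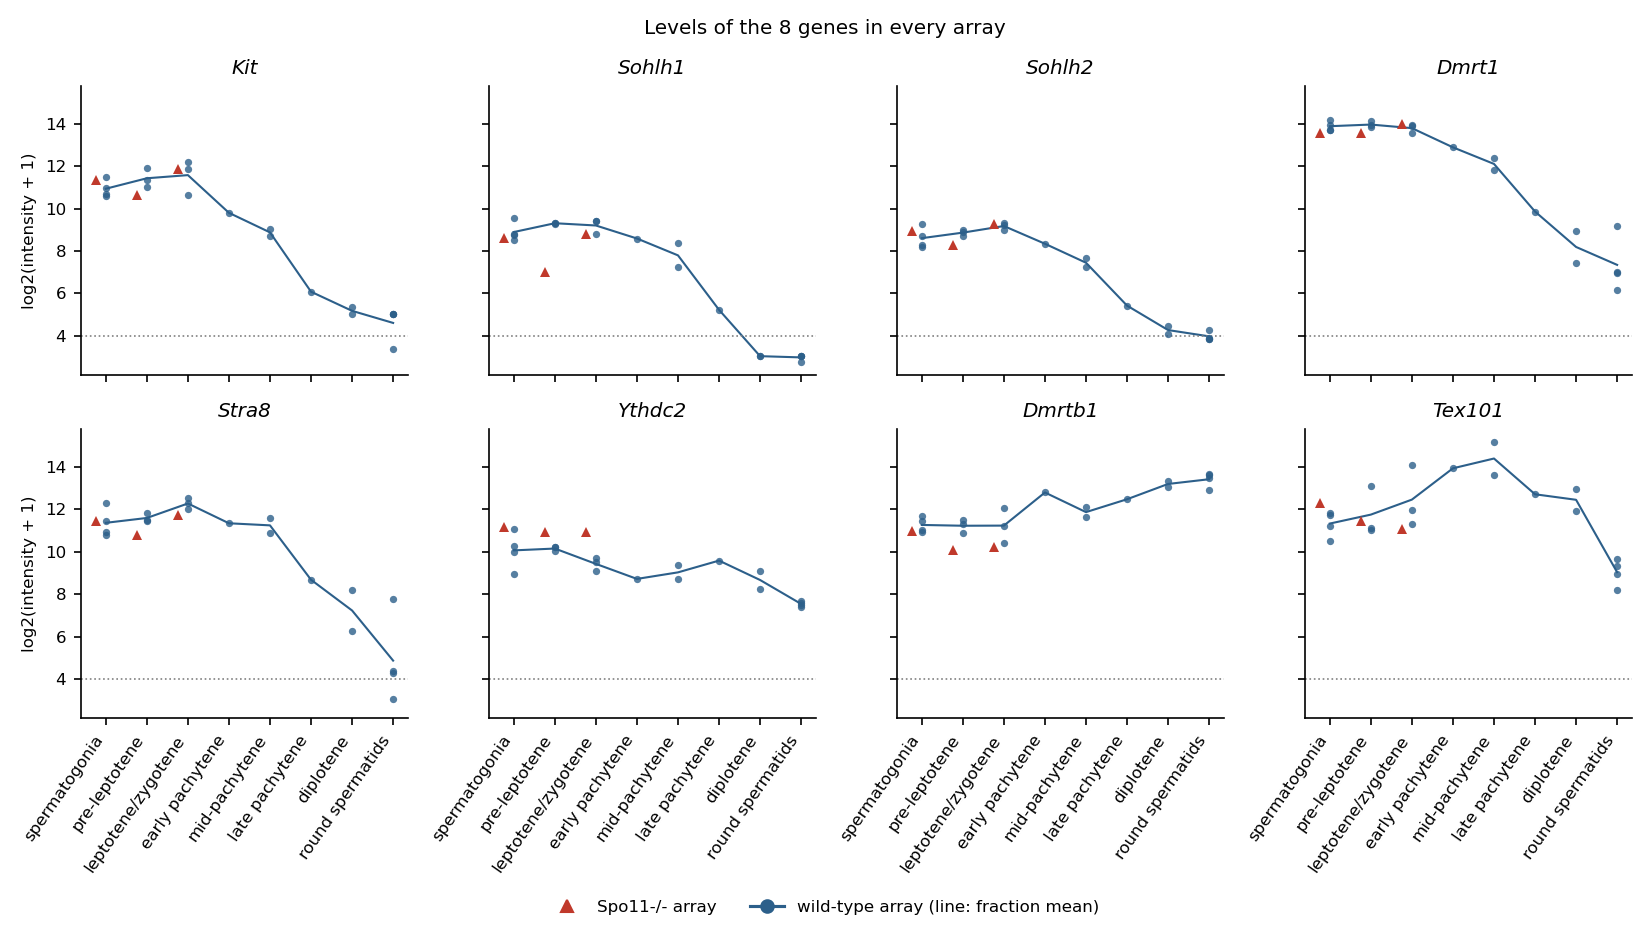
Levels of the 8 genes as log2(intensity + 1) on the vertical axis in each array, by fraction on the horizontal axis; red triangles are Spo11-/- arrays, blue circles wild-type arrays, the line joins wild-type fraction means, and the dotted line marks level 4. Kit, Sohlh1, Sohlh2, Dmrt1 and Stra8 stay high through leptotene/zygotene and drop through pachytene and diplotene, Ythdc2 spans 2.61 units, Dmrtb1 is highest in round spermatids at 13.43, and Tex101 peaks in mid-pachytene at 14.41.

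The 8 genes fell into 3 courses. Kit, Sohlh1, Sohlh2, Dmrt1 and Stra8 held a plateau through the first 3 fractions and lost most of their signal during pachytene and diplotene. Ythdc2 passed the test at no step between adjacent fractions and was lowest in round spermatids. Dmrtb1 and Tex101 were higher in pachytene and diplotene than in the earlier fractions, and then parted in round spermatids, where Tex101 was lower and Dmrtb1 at its highest. The span between the highest and lowest wild-type fraction mean was 7.42 for Stra8, 6.98 for Kit, 6.62 for Dmrt1, 6.33 for Sohlh1, 5.37 for Tex101 and 5.21 for Sohlh2. It was 2.61 for Ythdc2 and 2.20 for Dmrtb1, close to the median of 2.54 over all tested genes.

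Counted step by step, none of the 8 passed the test between pre-leptotene cells and spermatogonia, where 1.7% of all genes did (10.6% at an unadjusted p below 0.05), or between leptotene/zygotene and pre-leptotene cells, where 3.11% did (12.3% at an unadjusted p below 0.05). No member had an unadjusted p below 0.05 at either step. In mid-pachytene against leptotene/zygotene cells 4 of 8 fell and none rose, against 29.3% of all genes called (15.2% lower, 14.2% higher). In diplotene against mid-pachytene cells 5 fell and 1 rose, against 21.5% of all genes (14.5% lower, 6.98% higher), and the median change of the members was -3.44, beside -0.01 over all genes. In round spermatids against diplotene cells 1 fell, against 24.4% of all genes. The members' share of falls was thus above the background share at the 2 steps through pachytene and diplotene and, with 1 of 8 lower against 12% of all genes, near it at the last step. Over wider spans, 5 members fell and 2 rose in pachytene and diplotene against the first 3 fractions (50.2% of all genes called, 28.1% lower and 22.2% higher). In round spermatids 7 fell against pachytene and diplotene (41.6% called, 22.5% lower), and 7 fell and 1 rose against spermatogonia (65.4% called, 35.3% lower and 30.2% higher). Round spermatid and spermatogonia arrays did not overlap for any of the 8 genes, nor for 69.6% of all genes.

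**Figure D2:**
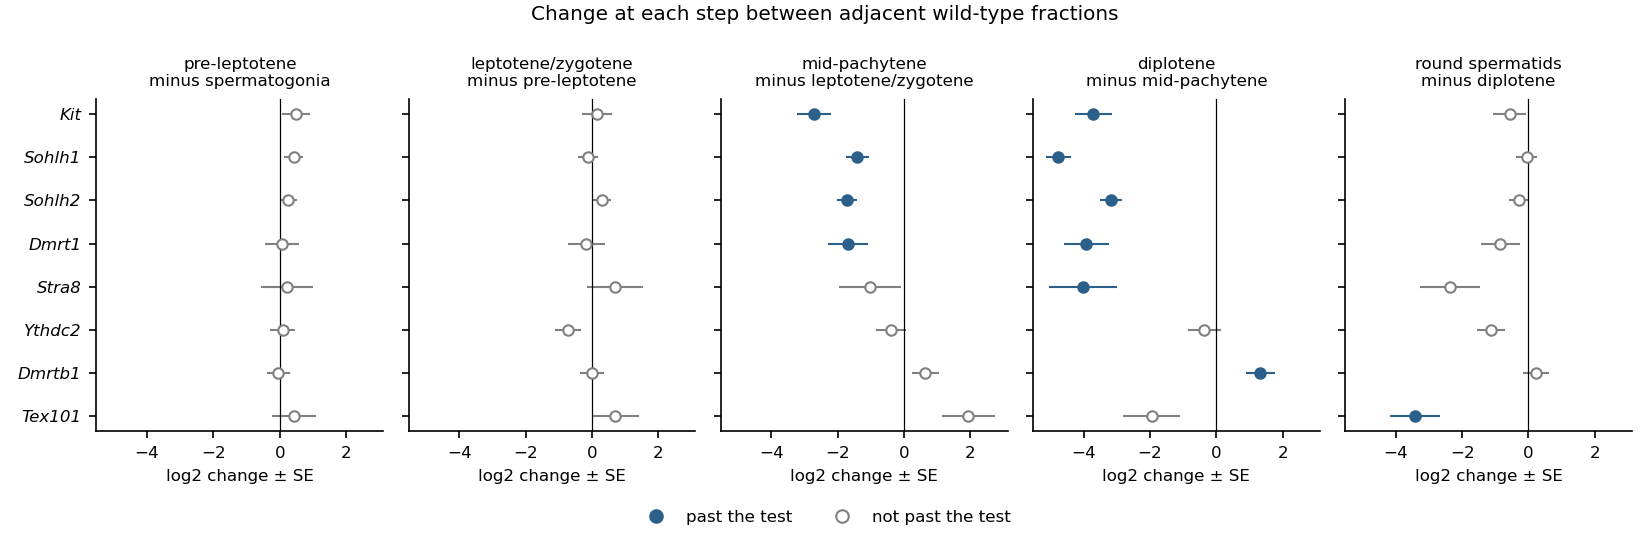
Log2 change ± SE of each gene between adjacent wild-type fractions, the later minus the earlier fraction, 1 panel per step; filled circles passed the test and open circles did not. The mid-pachytene panel holds 4 falls past the test, the diplotene panel 5 and the last panel 1, that of Tex101; the diplotene value of Sohlh1 is plotted as measured, although it is only a bound because diplotene lies below level 4.

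Kit lost its signal in steps from early pachytene on. Its level was 10.60, 10.71, 11.48 and 10.98 in spermatogonia, 11.02, 11.36 and 11.93 in pre-leptotene and 10.64, 12.22 and 11.89 in leptotene/zygotene cells. It was 9.80 in the early pachytene array, 8.71 and 9.05 in mid-pachytene, 6.08 in late pachytene, 5.01 and 5.34 in diplotene and 5.01, 5.005, 5.03 and 3.38 in round spermatids. The arrays of the first 3 fractions overlapped and all lay above every later array. For 30% of all genes, pachytene and diplotene arrays did not overlap with those of the first 3 fractions. From early pachytene to diplotene no neighbouring fractions overlapped, and diplotene and round spermatid arrays did overlap. Diplotene and mid-pachytene arrays did not overlap for 60.2% of all genes. The change in diplotene against mid-pachytene cells was -3.70 ± 0.56 (adjusted p = 0.000308), and that in all pachytene and diplotene fractions against the first 3 was -3.84 ± 0.30 (adjusted p = 2.21e-08). Round spermatids stood at -6.33 ± 0.40 against spermatogonia (adjusted p = 1.27e-09). Mast cells also carry KIT, and none of 7 mast cell markers reached level 4 in any array except round spermatid array 4, where 1 did. The 4 Leydig cell markers on the array summed to 71.9 to 211.6 in spermatogonia, 38.4 to 117.5 in pre-leptotene and 222 to 281.5 in leptotene/zygotene cells. In round spermatids they summed to 72.5 to 304.5. The part of other cells in the Kit levels was not tested.

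The other Kit probe set gave a flatter course. Its level was 6.06, 6.30, 7.96 and 7.74 in spermatogonia, 6.27, 7.09 and 7.26 in pre-leptotene and 6.21, 6.49 and 8.13 in leptotene/zygotene cells, then 5.42 in early pachytene, 5.26 and 5.40 in mid-pachytene and 5.27 in late pachytene. It was 4.82 and 5.10 in diplotene and 5.59, 5.52, 5.77 and 4.76 in round spermatids. With this probe set Kit still fell in pachytene and diplotene against the first 3 fractions, by 1.70 ± 0.35 (adjusted p = 0.000523), and in round spermatids against spermatogonia, by 1.61 ± 0.47 (adjusted p = 0.00592). The single steps did not pass the test: the change was -1.61 ± 0.60 in mid-pachytene against leptotene/zygotene (adjusted p = 0.0577) and -0.37 ± 0.66 in diplotene against mid-pachytene (adjusted p = 0.8). Round spermatids against pachytene and diplotene turned to 0.17 ± 0.44 (adjusted p = 0.801), against -2.88 ± 0.37 with the brighter probe set (adjusted p = 1.03e-05). A shorter Kit transcript that starts inside the gene is known from mouse spermatids; which part of Kit either probe set covers was not analysed here.

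**Figure D3:**
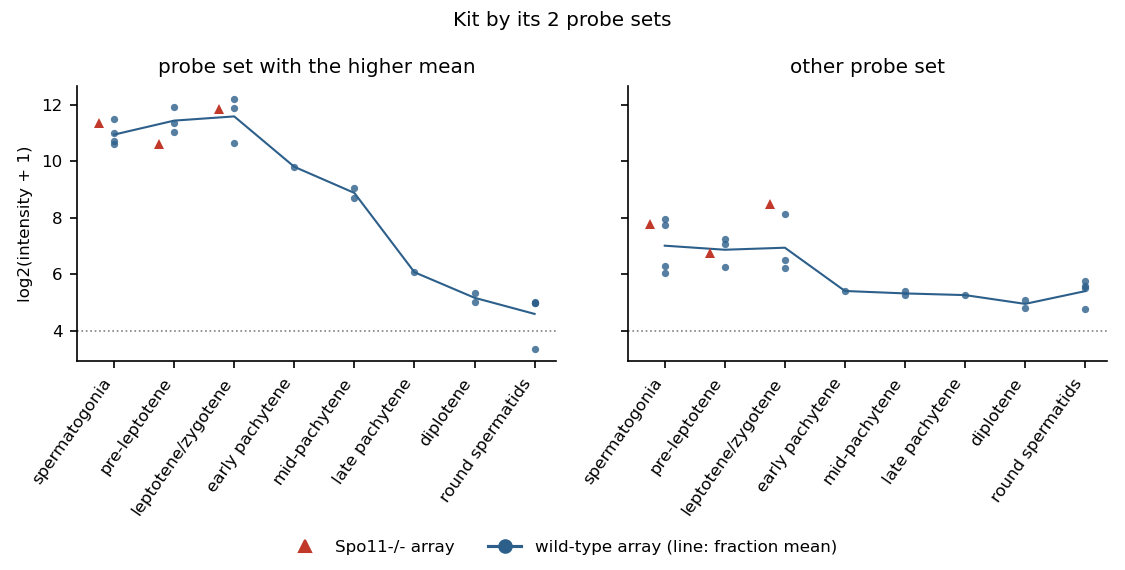
Kit level as log2(intensity + 1) by fraction for its 2 probe sets, the one used at left and the other at right; red triangles are Spo11-/- arrays, blue circles wild-type arrays and the line joins wild-type fraction means. At left the level runs from above 10 in the first 3 fractions to about 5 in diplotene; at right it runs between 4.76 and 8.13 in wild-type arrays and 3 of the 4 round spermatid arrays lie above those of pachytene, with array 4 below them at 4.76.

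Sohlh1 and Sohlh2, whose proteins pair with each other on DNA, had nearly the same course. Sohlh1 stood at 8.75, 8.79, 8.50 and 9.55 in spermatogonia, 9.32, 9.34 and 9.28 in pre-leptotene, 9.40, 8.78 and 9.43 in leptotene/zygotene, 8.59 in early pachytene, 8.36 and 7.23 in mid-pachytene and 5.22 in late pachytene cells. Both diplotene arrays (3.05 and 3.02) and all 4 round spermatid arrays (3.06, 3.04, 2.77 and 3.03) were below level 4. Sohlh2 stood at 8.71, 8.19, 8.27 and 9.26 in spermatogonia, 8.90, 8.73 and 8.97 in pre-leptotene, 9.32, 9.23 and 8.98 in leptotene/zygotene, 8.34 in early pachytene, 7.65 and 7.24 in mid-pachytene, 5.42 in late pachytene, 4.07 and 4.47 in diplotene and 4.26, 3.86, 3.87 and 3.90 in round spermatid cells. Mid-pachytene arrays of both genes lay below all leptotene/zygotene arrays, and diplotene arrays below all mid-pachytene arrays. Arrays did not overlap for 60.4% of all genes at the former step and 60.2% at the latter. In mid-pachytene against leptotene/zygotene cells Sohlh2 fell by 1.73 ± 0.30 (adjusted p = 0.000747) and Sohlh1 by 1.41 ± 0.34 (adjusted p = 0.00579); without mid-pachytene array 2 the Sohlh1 change was -0.85 (adjusted p = 0.16). In diplotene against mid-pachytene cells the change of Sohlh1 was at most -3.79 (adjusted p = 7.08e-06) and that of Sohlh2 -3.18 ± 0.33 (adjusted p = 2.21e-05). Over the 20 wild-type arrays, which share their fractions, the levels of the 2 genes correlated at 0.99.

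Promoters are shown for Sohlh1, Sohlh2 and Stra8, which were among the 5 genes that fell in diplotene against mid-pachytene cells. Kit and Dmrt1 also fell there, but the Kit promoters are not printed and that of Dmrt1 was not used. The Dmrtb1 promoter is shown because Dmrtb1 rose at the same step, a call lost in 9 of 16 alternatives. Each promoter is the 250 bases before a RefSeq transcript start in GRCm38.p6, read 5′ to 3′ on the gene's strand. Capitals mark matches to 4 motifs searched on both strands: the E-box CANNTG, bound by basic helix-loop-helix proteins, which 66.2% of 32851 promoters hold; CNCCTCAG, known for STRA8 (6.42%); ACANTGT, the core known for DMRT1 (6.47%); and AGGTCA, the retinoid receptor half-site (14.0%).
Sohlh1, chr2:25847249-25847498, minus strand: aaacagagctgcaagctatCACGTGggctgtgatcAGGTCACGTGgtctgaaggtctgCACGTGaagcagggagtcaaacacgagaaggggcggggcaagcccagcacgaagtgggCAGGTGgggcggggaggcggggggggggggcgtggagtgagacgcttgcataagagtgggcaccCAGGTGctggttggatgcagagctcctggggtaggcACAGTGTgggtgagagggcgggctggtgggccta
Sohlh2, chr3:55181794-55182043, plus strand: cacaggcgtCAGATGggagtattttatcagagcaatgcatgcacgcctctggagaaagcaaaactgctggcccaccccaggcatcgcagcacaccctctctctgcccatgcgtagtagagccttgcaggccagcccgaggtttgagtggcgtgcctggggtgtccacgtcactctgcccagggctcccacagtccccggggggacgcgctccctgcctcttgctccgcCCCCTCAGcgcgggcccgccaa
Stra8, chr6:34920698-34920947, plus strand: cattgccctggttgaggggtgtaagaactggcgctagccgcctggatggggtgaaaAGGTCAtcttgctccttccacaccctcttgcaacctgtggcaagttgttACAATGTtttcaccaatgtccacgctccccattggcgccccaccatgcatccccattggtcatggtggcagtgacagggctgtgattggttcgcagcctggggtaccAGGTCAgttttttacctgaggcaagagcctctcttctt
Dmrtb1, chr4:107684231-107684480, minus strand: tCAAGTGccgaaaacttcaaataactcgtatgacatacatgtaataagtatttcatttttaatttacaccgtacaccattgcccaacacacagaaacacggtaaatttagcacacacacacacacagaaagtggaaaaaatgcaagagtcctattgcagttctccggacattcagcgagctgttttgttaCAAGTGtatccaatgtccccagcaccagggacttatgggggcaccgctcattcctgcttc

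Sohlh1 held 5 E-boxes, 3 of them CACGTG, with 1 ACANTGT and 1 AGGTCA whose last bases overlap an E-box. Sohlh2 held 1 E-box and 1 CNCCTCAG that begins at -22 from the start. Stra8 held AGGTCA at 2 places, beginning at -194 and -38 from the start, and 1 ACANTGT, with no E-box. Dmrtb1 held 2 E-boxes at the start shown and 3 at the other start searched, Tex101 held 1, and no match to any of the 4 motifs lay before either Kit start. Both Dmrtb1 starts lie inside the gene, whose upstream end is at 107704011, and the Stra8 start lies inside a gene that begins at 34920163. The bases before those gene ends were not searched. A match is a string of letters and does not show binding.

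Like Kit, Dmrt1 was lower from early pachytene on, and it stayed above background in every array. Its level was 13.73, 13.69, 14.18 and 13.96 in spermatogonia, 13.93, 13.86 and 14.12 in pre-leptotene, 13.55, 13.96 and 13.89 in leptotene/zygotene, 12.89 in early pachytene, 12.38 and 11.85 in mid-pachytene and 9.86 in late pachytene cells. It was 8.93 and 7.46 in diplotene and 9.20, 7.03, 6.99 and 6.17 in round spermatid cells, and round spermatid array 1 exceeded both diplotene arrays. No array of the first 3 fractions overlapped with any later one. Against pachytene and diplotene arrays alone, 30% of all genes had no such overlap. Diplotene stood at -3.92 ± 0.68 against mid-pachytene (adjusted p = 0.000751). The smaller fall in mid-pachytene against leptotene/zygotene cells, -1.69 ± 0.62, passed the test narrowly (adjusted p = 0.0457) and did not when any 1 of the 5 arrays was left out (adjusted p between 0.0692 and 0.273). In round spermatids against diplotene the change was -0.85 ± 0.58 (adjusted p = 0.335), and -1.46 (adjusted p = 0.0102) without round spermatid array 1. Dmrt1 is also made in Sertoli cells. The 10 Sertoli markers summed to 1421.8 and 6288.9 in diplotene and 620.3 to 7457.6 in round spermatids, ranges that overlap those of the first 3 fractions (2879.8 to 7920.1). The highest of the spermatid sums, 7457.6, was that of array 1, against 620.3 to 3593.7 in the other 3, and the part of Sertoli cells in the Dmrt1 levels was not tested.

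Stra8 was present well after meiotic entry. Its level was 11.46, 10.79, 10.95 and 12.29 in spermatogonia, 11.83, 11.45 and 11.52 in pre-leptotene and 12.54, 12.02 and 12.29 in leptotene/zygotene cells. It was 11.35 in early pachytene, 11.59 and 10.91 in mid-pachytene, 8.68 in late pachytene, 8.19 and 6.27 in diplotene and 7.78, 4.28, 4.37 and 3.04 in round spermatids. The leptotene/zygotene arrays lay above those of pre-leptotene, the fraction in which STRA8 protein is known to act. Arrays of these 2 fractions did not overlap for 20.3% of all genes, and the Stra8 change was 0.68 ± 0.84 (adjusted p = 0.938). The early and mid-pachytene arrays were within the range of spermatogonia. Mid-pachytene stood at -1.03 ± 0.94 against leptotene/zygotene (adjusted p = 0.434). The fall came after mid-pachytene, at -4.02 ± 1.03 in diplotene (adjusted p = 0.0106), and it missed the threshold without mid-pachytene array 1 (adjusted p = 0.0878) or diplotene array 2 (adjusted p = 0.132). Round spermatid array 1, which has the high Sertoli sum, stood above the other 3, and whether that sum and the Stra8 level are linked was not tested. Round spermatids changed by -2.37 ± 0.89 against diplotene (adjusted p = 0.0597), and by -3.34 (adjusted p = 0.000485) without that array.

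Ythdc2 had a narrower span over the fractions than the other members that fell in round spermatids against spermatogonia. Its level was 10.26, 9.98, 11.10 and 8.94 in spermatogonia, 10.02, 10.23 and 10.23 in pre-leptotene, 9.51, 9.69 and 9.10 in leptotene/zygotene, 8.72 in early pachytene, 9.36 and 8.71 in mid-pachytene and 9.59 in late pachytene cells. It was 9.08 and 8.27 in diplotene and 7.58, 7.67, 7.40 and 7.51 in round spermatids. Neighbouring fractions in the order of their means overlapped except for round spermatids, which lay below every other array. For 26.8% of all genes, round spermatid arrays did not overlap with those of pachytene and diplotene. Against spermatogonia, round spermatids stood at -2.53 ± 0.35 (adjusted p = 5.51e-06). Pachytene and diplotene against the first 3 fractions changed by -0.88 ± 0.26 (adjusted p = 0.00731), under the minimum change of 1. Of its partner genes, Meioc did not pass the test at any of the 3 later steps (0.76 ± 0.64, 0.31 ± 0.70 and -1.17 ± 0.61 in mid-pachytene, diplotene and round spermatids against the fraction before each), nor did Xrn1, an exonuclease gene (-1.22 ± 0.51, -0.62 ± 0.56 and 0.56 ± 0.49). Rbm46, whose protein binds the same complex, fell by 1.08 ± 0.35 in round spermatids against diplotene cells (adjusted p = 0.0292).

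Dmrtb1 ran opposite to its relative Dmrt1. Its level was 11.02, 11.46, 11.69 and 10.92 in spermatogonia, 10.88, 11.32 and 11.49 in pre-leptotene and 10.41, 11.23 and 12.08 in leptotene/zygotene cells. It was 12.80 in early pachytene, 11.63 and 12.12 in mid-pachytene, 12.48 in late pachytene, 13.06 and 13.35 in diplotene and 12.92, 13.47, 13.63 and 13.69 in round spermatids. The first 3 fractions overlapped with each other, mid-pachytene overlapped with spermatogonia and leptotene/zygotene but lay above pre-leptotene, and diplotene and round spermatid arrays lay above all others. Diplotene and mid-pachytene arrays did not overlap for 60.2% of all genes. Round spermatids stood at 2.16 ± 0.32 against spermatogonia (adjusted p = 1.1e-05), with no overlap, as for 69.6% of all genes. The pachytene and diplotene fractions stood at 1.34 ± 0.24 against the first 3 (adjusted p = 0.00011). The rise in diplotene against mid-pachytene, 1.33 ± 0.45, passed narrowly (adjusted p = 0.042) and was lost in 9 of 16 alternatives, among them leaving out each of the 4 arrays. Over the wild-type arrays, which share their fractions, Dmrtb1 correlated at -0.90 with Dmrt1. This was not particular to Dmrt1: the values were -0.90 with Sohlh2, -0.89 with Sohlh1, -0.88 with Stra8 and -0.86 with Kit.

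Tex101 was highest in pachytene. Its level was 11.24, 11.86, 11.75 and 10.50 in spermatogonia, 11.01, 13.13 and 11.13 in pre-leptotene, 11.99, 14.09 and 11.32 in leptotene/zygotene, 13.94 in early pachytene, 13.64 and 15.17 in mid-pachytene and 12.72 in late pachytene cells. It was 11.95 and 12.96 in diplotene and 8.98, 9.66, 9.32 and 8.19 in round spermatids. Array 2 of pre-leptotene, leptotene/zygotene, mid-pachytene and diplotene each stood above the other arrays of its fraction, so that leptotene/zygotene and mid-pachytene arrays overlapped, while round spermatids lay below every other array. For 26.8% of all genes, round spermatid arrays did not overlap with those of pachytene and diplotene. Round spermatids against diplotene changed by -3.42 ± 0.75 (adjusted p = 0.00303). Pachytene and diplotene against the first 3 fractions changed by 1.53 ± 0.46 (adjusted p = 0.00792). Mid-pachytene stood at 1.94 ± 0.79 against leptotene/zygotene (adjusted p = 0.0689) and diplotene at -1.95 ± 0.86 against mid-pachytene (adjusted p = 0.121).

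Transcripts of 2 surface proteins that TEX101 works with rose in mid-pachytene against leptotene/zygotene cells. Ly6k, which encodes its binding partner on the cell surface, averaged 13.52 ± 0.71 in mid-pachytene and 11.23 ± 1.23 in leptotene/zygotene cells (SD, n = 2 and 3; change 2.30 ± 0.70, adjusted p = 0.0205). Adam3 averaged 12.14 ± 0.67 and 10.09 ± 1.07 in the same groups (2.05 ± 0.64, adjusted p = 0.0224). Adam3 had its highest mean in round spermatids, at 13.51 ± 0.13 (SD, n = 4), where Ly6k averaged 11.28 ± 0.29. Of genes that act with the SOHLH factors, Lhx8 fell by 1.84 ± 0.50 in mid-pachytene against leptotene/zygotene (adjusted p = 0.0116) and Tcf3, which encodes a general helix-loop-helix partner, by 1.56 ± 0.55 (adjusted p = 0.0404). In diplotene against mid-pachytene cells Tcf3 fell by 3.86 ± 0.60, Taf4b by 2.91 ± 0.82 and the RNA-binding factor gene Dazl by 3.10 ± 0.57, and Lhx8 changed by at most -3.68. Of the 11 partner genes tested, 2 rose and 2 fell in mid-pachytene, where 14.2% of all genes rose and 15.2% fell. In diplotene 4 fell, against 14.5% of all genes. The median change was -0.79 in mid-pachytene and -0.98 in diplotene (-0.62 with genes below background at their bound).

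Of 13 genes tested that mark differentiating spermatogonia, none rose and 6 fell in mid-pachytene against leptotene/zygotene cells. Over all genes 14.2% rose and 15.2% fell at that step. The median change of the 13 was -1.62, beside -0.07 over all genes. The 4 largest falls were those of the homeobox genes Rhox13 (-2.58 ± 0.74) and Esx1 (-2.18 ± 0.65), of Crabp1, a retinoic acid-binding protein (-2.09 ± 0.67), and of the Polycomb protein gene Scml2 (-2.05 ± 0.46). In diplotene against mid-pachytene 10 of 13 fell and none rose, against 14.5% and 6.98% of all genes, with a median of -3.71. The falls were led by the RNA-binding pluripotency factor Lin28a (-5.20 ± 0.92), Sall4 (-4.52 ± 0.90), Scml2 (-4.40 ± 0.51) and Uchl1 (-4.33 ± 0.72). Of 13 stem and progenitor genes tested, 5 fell in diplotene, where 14.5% of all genes did. Among these 5 were Zbtb16 (-5.44 ± 0.89), Sox3 (-4.72 ± 0.77) and Foxo1 (-4.16 ± 0.61). Between the first 3 fractions no differentiating spermatogonia gene passed the test, and of the stem and progenitor genes Id4 rose in leptotene/zygotene against pre-leptotene cells (2.22 ± 0.58, adjusted p = 0.0485).

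Genes of the meiotic programme that follows entry did not share 1 course. Of 24 tested, none passed the test between pre-leptotene cells and spermatogonia or between leptotene/zygotene and pre-leptotene cells. Their median changes there were 0.07 and 0.11, so at this test the list did not tell the first 3 fractions apart either. In mid-pachytene against leptotene/zygotene cells 6 rose and 6 fell, against 14.2% of all genes higher and 15.2% lower. The largest rise was that of Spo11 (3.41 ± 0.80). The falls included the X-linked meiotic gene Tex11 (-2.97 ± 0.69) and the strand exchange gene Dmc1 (-2.36 ± 0.40), and that of the break-placing methyltransferase gene Prdm9 was a bound of at most -0.67. In diplotene against mid-pachytene none rose and 6 fell, against 6.98% and 14.5% of all genes. The median was -0.56 (-0.66 with genes below background at their bound), beside -3.44 for the 8 genes described here.

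The genes whose levels ran most like each member over the 20 wild-type arrays are given as a description, since the arrays share fractions. Dmrt1 ran closest to Mcm2, a subunit of the replicative helicase (Pearson r = 0.998), then Plod1 and Tcf12. Mcm2 averaged 11.91 in spermatogonia, 9.67 in mid-pachytene, 4.89 in diplotene and 3.83 in round spermatids. Sohlh1 and Sohlh2 shared Kctd15 as their nearest gene (r = 0.994 and 0.996), and each was among the 3 nearest of the other. Kit was nearest to Irf2bp2, Coq7 and Bahd1 (all r = 0.99), and Stra8 to Mybbp1a, Atic and Dnmt3b (r = 0.99). The nearest genes of the other 3 ran less close. They were Fahd2a for Dmrtb1 (r = 0.98), the histone demethylase gene Kdm4c for Ythdc2 (r = 0.97) and Qsox2, a sulfhydryl oxidase gene, for Tex101 (r = 0.96).

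SPO11 makes the double-strand breaks that start meiotic recombination, and Spo11-/- spermatocytes are known to arrest before late prophase. The comparison of the 3 Spo11-/- arrays with the 10 wild-type arrays of the same fractions fitted 1 genotype shift with fraction as a second term over 11980 genes. It therefore tests what the 3 fractions share, and it takes the Spo11-/- arrays as independent. Of the 8 genes, 1 rose and none fell, against 11.7% of all genes called (1.63% higher, 10% lower). The early genes Kit, Sohlh2, Dmrt1 and Stra8 were present in all 3 Spo11-/- arrays and did not pass the test.

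Ythdc2 was the gene that rose. Its level was 11.17 in the Spo11-/- spermatogonia array, against 8.94 to 11.10 in wild-type spermatogonia. It was 10.92 against 10.02 to 10.23 in pre-leptotene cells and 10.96 against 9.10 to 9.69 in leptotene/zygotene cells. The Spo11-/- array lay above every wild-type array in each fraction, as it did for 6.45% of all genes, and in spermatogonia by a small margin. The shift was 1.13 ± 0.34 (adjusted p = 0.0437). The call is a narrow one: it was lost in 17 of 26 alternatives, with values between 0.76 and 1.53 and adjusted p between 0.00635 and 0.536 over all of them. Without the Spo11-/- pre-leptotene array the shift was 1.31 (adjusted p = 0.0705), without that of spermatogonia 1.15 (adjusted p = 0.129) and without that of leptotene/zygotene 0.94 (adjusted p = 0.207).

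Sohlh1 was low in 1 Spo11-/- array. It stood at 8.62, 7.02 and 8.82 in Spo11-/- spermatogonia, pre-leptotene and leptotene/zygotene cells, against 8.50 to 9.55, 9.28 to 9.34 and 8.78 to 9.43 in wild type. The shared shift was -0.97 ± 0.35 (adjusted p = 0.0794), and -0.33 ± 0.27 (adjusted p = 0.476) without the Spo11-/- pre-leptotene array. Within pre-leptotene, taking the spread from wild-type replicates, the change was -2.29 ± 0.42 (adjusted p = 0.00858). That array also lay below all wild-type pre-leptotene arrays for Kit, Stra8, Dmrt1, Dmrtb1 and Sohlh2, as it did for 42.9% of all genes, and it is the array with the high leukocyte and Sertoli sums; their part in these values was not tested. A test of whether the genotype effect differs between fractions passed for none of the 8 genes (242 of all genes passed); Sohlh1 had the lowest p, 0.0101 before adjustment and 0.21 after it.

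**Figure D4:**
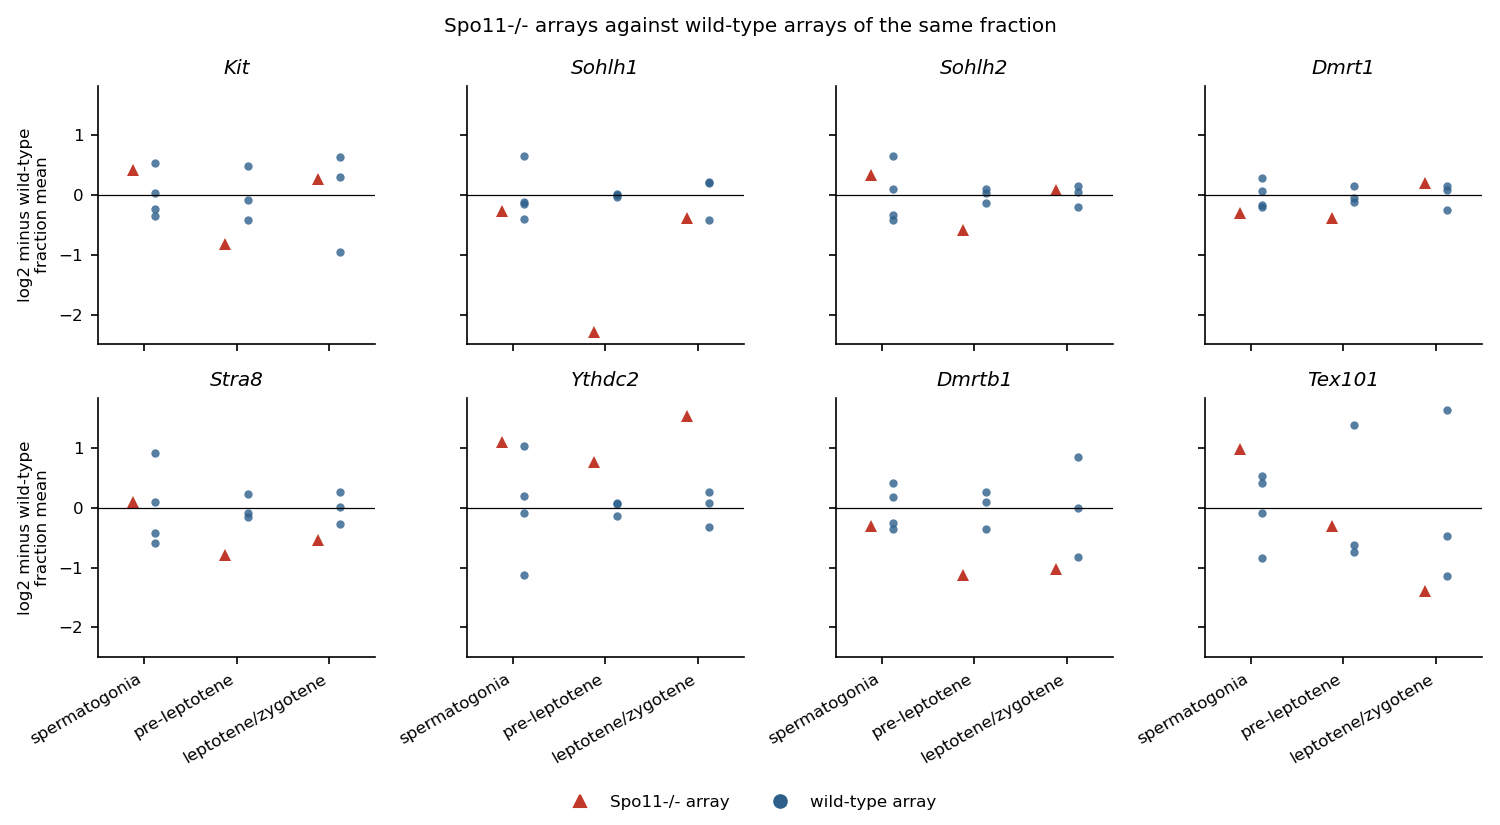
Level of each gene minus the mean of the wild-type arrays of its fraction, on a log2 scale, in the 3 fractions with Spo11-/- samples; red triangles are Spo11-/- arrays and blue circles wild-type arrays. The Ythdc2 triangles lie above all circles in each fraction, and the Sohlh1 triangle lies at -2.29 in pre-leptotene and near the circles in the other 2 fractions.

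The other members gave no shared shift past the test. Kit stood at 11.36, 10.62 and 11.86 in Spo11-/- spermatogonia, pre-leptotene and leptotene/zygotene cells, against 10.60 to 11.48, 11.02 to 11.93 and 10.64 to 12.22 in wild type, a shift of -0.03 ± 0.35 (adjusted p = 0.968). Stra8 stood at 11.47, 10.81 and 11.74, against 10.79 to 12.29, 11.45 to 11.83 and 12.02 to 12.54, a shift of -0.40 ± 0.29 (adjusted p = 0.382). Dmrt1 stood at 13.59, 13.58 and 14.00, against 13.69 to 14.18, 13.86 to 14.12 and 13.55 to 13.96, a shift of -0.17 ± 0.18 (adjusted p = 0.553). None of the 3 genes lay on the same side of the wild-type arrays in every fraction. Sohlh2 stood at 8.95, 8.29 and 9.27, against 8.19 to 9.26, 8.73 to 8.97 and 8.99 to 9.32, a shift of -0.04 ± 0.24 (adjusted p = 0.931).

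Dmrtb1 and Tex101 were higher in pachytene and diplotene than in the first 3 fractions, and Tex101 was lowest in round spermatids. Both lay above level 10 in all 3 Spo11-/- arrays, where most late prophase and spermatid markers were below level 4. The part of later cells in the levels of the 2 genes was not tested. Dmrtb1 had levels of 10.96, 10.10 and 10.22 in Spo11-/- spermatogonia, pre-leptotene and leptotene/zygotene cells, against 10.92 to 11.69, 10.88 to 11.49 and 10.41 to 12.08 in wild type, a shift of -0.81 ± 0.32 (adjusted p = 0.105). Tex101 had 12.31, 11.46 and 11.07, against 10.50 to 11.86, 11.01 to 13.13 and 11.32 to 14.09, a shift of -0.21 ± 0.63 (adjusted p = 0.849). Its array lay above, within and below the wild-type range in the 3 fractions in turn. The median level of the 10 late prophase markers was 3.53, 3.52 and 3.89 in the same Spo11-/- arrays, with 4 of 10 at level 4 or more, against 6.52 to 8.35, 6.70 to 8.68 and 9.84 to 10.82 in wild type. Of the late prophase markers 9 of 10 fell and of the spermatid markers 12 of 12, where 10% of all genes did. Adam3 had 3.23, 3.18 and 3.47, all below background, against 7.46 to 11.36 over the wild-type arrays, a shift of at most -5.401 (adjusted p = 4.91e-05), whereas Ly6k stood at 10.65, 9.21 and 8.99, against 8.07 to 12.53, a shift of -0.54 ± 0.69 (adjusted p = 0.627).

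**Figure D5:**
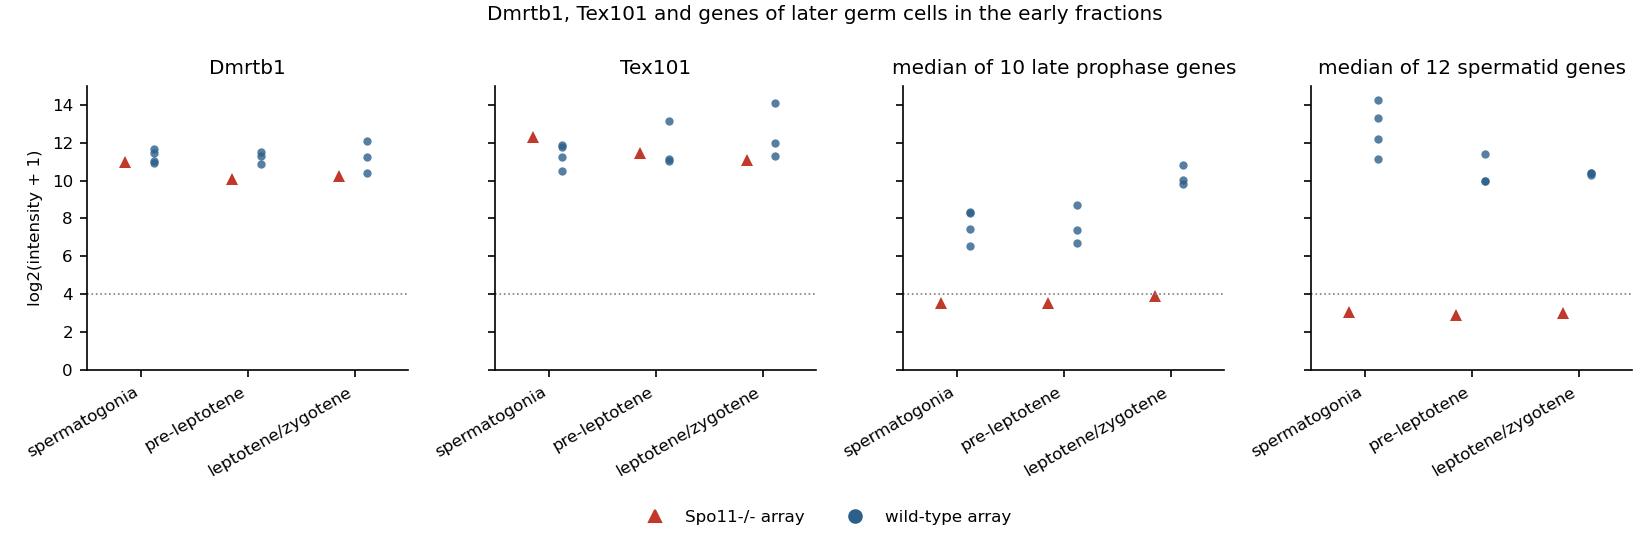
Levels of Dmrtb1 and Tex101 and the median levels of 10 late prophase and 12 spermatid markers, as log2(intensity + 1), in the 3 early fractions; red triangles are Spo11-/- arrays, blue circles wild-type arrays and the dotted line marks level 4. Both genes lie above 10 in all Spo11-/- arrays, while the marker medians lie between 2.87 and 3.89 there.

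Among genes of the same stage, of 13 differentiating spermatogonia genes tested 1 fell in Spo11-/- arrays, Lin28a, and none rose. Over all genes 10% fell and 1.63% rose, which is also the background for the lists below. The median shift of the 13 was -0.31, beside -0.05 over all genes. Lin28a stood at 5.66, 5.08 and 8.66 in Spo11-/- spermatogonia, pre-leptotene and leptotene/zygotene cells, against 7.92 to 11.01, 8.59 to 10.63 and 10.38 to 10.56 in wild type (-3.31 ± 0.66, adjusted p = 0.00615). Of 13 stem and progenitor genes 6 fell, including Gfra1, a receptor gene of stem cells (-2.48 ± 0.39), the helix-loop-helix gene Id4 (-2.39 ± 0.45), Ddit4 (-2.27 ± 0.42) and Upp1 (-2.25 ± 0.60), and the median of the 13 was -1.22 (-1.18 with genes below background at their bound). Of 24 meiotic programme genes 1 fell, Spo11 itself (-1.97 ± 0.59, adjusted p = 0.0406).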

How the data were processed

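Intensities came from Affymetrix arrays of sorted mouse testis cells. The authors summarised probes to linear probe set intensities with GCRMA, per the submitters' processing notes, whose version is not given in the sources used here; GCRMA makes low values cluster near background. The deposited intensity values ran from 1.48 to 107451, with array medians of 10.63 to 12.56, and 44.21 to 47.29% of probe sets reached level 4; the number of arrays limits the precision. From the deposited intensities log2(value + 1) was computed here, with no further scaling. Of 45037 probe sets, 34945 carried 1 symbol, 932 several (not used) and 9160 were not listed in the probe annotation. The 34945 gave 18193 genes, and 34741 of these probe sets matched RefSeq.

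Genes at log2 4 or more in at least 2 arrays entered linear models in limma 3.58.1 (R 4.3.3), with Benjamini-Hochberg adjustment: 13087 in a fit of 1 mean per wild-type fraction, 11980 in a fit of fraction and genotype over the early fractions. All 8 members passed the filter in both. A call needed an adjusted p below 0.05 and a change of at least 1. Where every array of a group lay below 4, its mean was set to 4 and the change given as a bound ("at most"). Scripts were tested on simulated data. Members and gene lists were chosen with earlier results of these data known; beyond the members, genes named in the text are list members that passed the test with the largest changes, the members' partners, and the 3 nearest patterns. Same-numbered arrays deviated together in pre-leptotene and spermatogonia (r of 0.53, 0.65 and 0.23 over genes) and, more weakly, in round spermatids and spermatogonia (0.40, 0.12, 0.10 and 0.16). In leptotene/zygotene and pre-leptotene, with 3 pairs, r was 0.59, 0.08 and 0.27, which was taken as failing that check. The other neighbouring fractions compared share only 2 pairs. The changes, SE and p-values of the main results come from fits without pairing, and a replicate block was used only as an alternative. Alternatives were other scalings, filters, weights, a replicate block, subsets and each array left out. Dmrt1 and Ythdc2 promoters were not used here.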

Additional observations from a re-analysis of the deposited data

Results flagged for a closer look

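Within groups of 4 wild-type arrays, 3 of the 16 sets of 4 values examined had 1 array far from the rest, where chance gives about 1 in 20. Kit stood at 3.38 in round spermatid array 4, against 5.005 to 5.03 in the other 3. Sohlh1 stood at 2.77 in round spermatid array 3, against 3.03 to 3.06, all below level 4. Sohlh2 stood at 4.26 in round spermatid array 1, against 3.86 to 3.90.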

How the results depend on the processing

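Of 1464 values of the 8 genes under the alternatives, 1406 kept their direction and side of the threshold, 38 lost a call, 19 gained one and 1 turned, Kit in round spermatids against pachytene and diplotene, which was 0.17 with the other Kit probe set. The single call in Spo11-/- arrays, Ythdc2, became 0 calls with quantile normalization, with no filter, with the Spo11-/- spermatogonia or leptotene/zygotene array alone, and without spermatogonia arrays 1 and 2, an alternative chosen after seeing the data; leaving out 1 array gave 0 to 1. In round spermatids against diplotene the count of 1 became 2 with median centring, 3 with array weights and 2 with the arrays of those 2 fractions alone, and 1 to 3 with 1 array left out. With 1 array left out the counts were 2 to 4 in mid-pachytene against leptotene/zygotene and 4 to 5 in diplotene against mid-pachytene. Without spermatogonia arrays 1 and 2, Dmrt1 in mid-pachytene (adjusted p = 0.0594) and Dmrtb1 in diplotene (adjusted p = 0.0568) also lost their calls. With the replicate block, Tex101 passed in mid-pachytene against leptotene/zygotene (1.73, adjusted p = 0.0105) and in diplotene against mid-pachytene (-1.95, adjusted p = 0.0104), and Ythdc2 passed in pachytene and diplotene against the first 3 fractions (-1.07, adjusted p = 0.00417); the counts there were 5, 7 and 8, and the block changed no other member's call. No paired fit was possible for the Spo11-/- arrays because they carry no replicate number. Over all genes, the count of calls between pre-leptotene and spermatogonia was 223 and ran from 0 to 830, and between leptotene/zygotene and pre-leptotene 407 and from 0 to 748. For mid-pachytene it was 3839, against 1466 without mid-pachytene array 2; for diplotene 2812, against 1108 with the 2 fractions alone; for round spermatids against diplotene 3199, against 1690 without diplotene array 1; and for Spo11-/- 1398, against 417 with the leptotene/zygotene array alone. The share of calls that were higher was 3.6% in pre-leptotene (22.9% with median centring), 32.5% in diplotene (44.3%) and 13.9% in Spo11-/- arrays (33.3%); median centring moved the median of all genes by up to 0.29. The causes of these changes were not tested.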
